A study of Brachypodium distachyon with 89 samples.

Results

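Large chaperones and heat shock factors were followed through a day of submergence in Brachypodium distachyon, a small grass used as a model for cereals. The genes were chosen by the description of each gene's best match in Arabidopsis, which had to name a heat shock protein (HSP60, HSP70, HSP81, HSP89, HSP90, HSP91 or HSP101), a heat shock cognate, a heat shock transcription factor or a chaperonin, with DnaJ proteins left out. This took 82 of the 24467 genes in the table, among them 18 heat shock factors (HSFs), 16 HSP70s, 6 HSP90s, 8 matches of HSP101, 22 chaperonins and 12 other genes whose description held one of these words. Of the 82 genes, 81 had at least 1 CPM in 3 libraries and were tested, and the gene left out, Bradi1g01240, is a match of HSP101 with 0 to 1.10 CPM in any library.

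The ecotypes Bd21, which the study calls sensitive, and Bd21-3, which it calls tolerant, were grown under days of 16 h light and 8 h dark. By the methods of the study the plants were 14 days old at submergence, though its abstract gives another age. Plants under submergence (S) stood in tanks of water 30 cm deep, low light controls (LL) stood in tanks without water beside them, and normal growth controls (NG) stayed at a light of 150 μE. Light at the S and LL plants was 70 μE. S thus differed from LL in water, and from NG in light, water and the move into a tank. LL differed from NG in light and in that move. Submergence began late in the light period before the first sampling, and green aboveground tissue was then taken at ZT0, ZT8, ZT16, ZT20 and ZT24, where ZT counts hours from dawn. Each of the 30 groups had 3 libraries, each a pool of 5 plants, except Bd21 in LL at ZT24 with 2, which gives 89 libraries. Plants of 1 time stood in 1 tank, so that tank and ZT cannot be told apart, and the tests measure the spread between pools.

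Heat shock factors are transcription factors that bind the promoters of heat shock genes, and in Arabidopsis those of class A activate transcription while those of class B lack this activity and several repress it. HSP70 and HSP90 are chaperones that bind and release client proteins with the use of ATP, and HSP101 pulls proteins out of aggregates together with HSP70. Chaperonins are barrel-shaped complexes in which proteins fold, with a CPN60 and CPN20 form in plastids that assists the assembly of Rubisco, an HSP60 and CPN10 form in mitochondria and the CCT (TCP-1) form in the cytosol. Heat shock genes are known to be induced in plants by low oxygen as well as by heat.

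Levels are given as CPM, reads of a gene relative to its library's effective size, from 3896851 to 16044727 reads per library, so that 1 read was worth 0.0608 to 0.261 CPM. Summed CPM of 8 green leaf markers ran from 822 to 12611 in S, 10644 to 29949 in LL and 17326 to 49400 in NG, and each of the 8 reached 1 CPM in some library. Medians of summed CPM were 41.5 in S, 88.0 in LL and 97.3 in NG for 9 guard cell markers, and 9.04, 14.2 and 14.3 in the same order for 2 phloem markers. For 2 root markers they were 1.23 in S, 4.65 in LL and 7.07 in NG. The part of such shifts in tissue make-up was not tested. In bulk tissue, fewer cells of a type and less RNA per cell cannot be told apart. A single library stood apart in these genes: NG of Bd21-3 at ZT8, replicate 3, was the highest of its group in 12 of the 14 genes that rose in S, and in 9 of them it had over 2 times the level of each of the other 2 libraries.

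Genes were called at an adjusted p under 5e-06 in a limma-trend test of log2(CPM + 1), a log2 fold change (log2FC) of 1.5 or more in size and 15 CPM or more in the mean of either group, limits taken from the methods of the study, with Benjamini-Hochberg adjustment over all genes. In Bd21, 14 of the 81 genes (17.3%) were called higher in S than in LL at 1 or more ZTs, beside 7.03% of all genes tested, and 8 (9.88%) were called lower, beside 8.42%. In Bd21-3, 13 genes (16.0%) were called higher, beside 7.5% of all genes, and 11 (13.6%) lower, beside 9.95%. Over both ecotypes 14 genes rose, 12 fell and 55 were called at no ZT, and no gene was called in both directions. The median log2FC of the 81 genes lay between 0.18 and 0.43 in the 10 comparisons of S over LL, where that of all genes lay between -0.12 and 0.02. These medians are over LL alone. In LL over NG, given below, the median of the 81 genes was negative, so the shift depends on the control. In S over NG, 13 genes (16.0%) were called higher and 12 (14.8%) lower in Bd21, beside 8.79% and 12% of all genes, and 12 (14.8%) higher and 15 (18.5%) lower in Bd21-3, beside 8.83% and 12.5%. When each fit used only the groups compared, 6 genes were called higher and 0 lower in S over LL in Bd21 and 5 higher and 0 lower in Bd21-3.

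Grouped by the Arabidopsis match, those that rose were 4 HSFs, 4 cytosolic HSP70s with 1 HSP110-type relative, 2 cytosolic HSP90s, 2 matches of HSP101 and 1 mitochondrial HSP60. Those that fell were 6 of 9 plastid chaperonins, 2 of 3 RbcX proteins, 1 HSF, 1 BiP of the endoplasmic reticulum, 1 match of HSP101 and 1 HSP90-like ATPase. The cytosolic HSP70s Bradi1g66470, Bradi2g54570 and Bradi2g23250, the HSP90 Bradi5g02037 and the HSP101 match Bradi2g49660 were higher in all 10 comparisons, and the plastid CPN60A match Bradi5g02890 was lower in all 10.

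**Figure D1:**
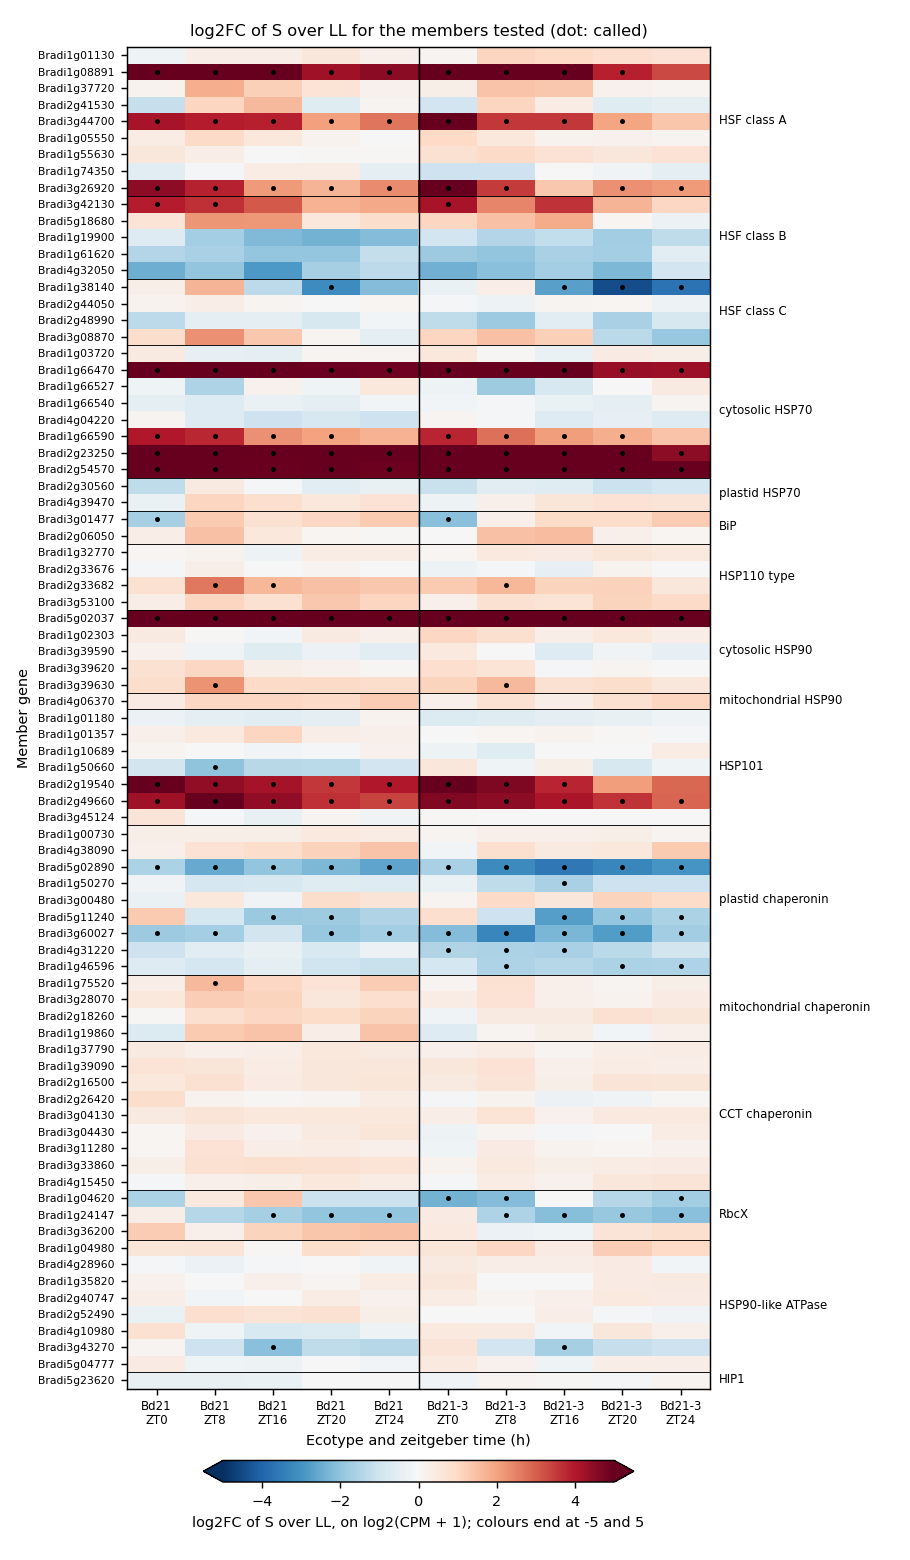
Heat map of the log2FC of S over LL on log2(CPM + 1) for the 81 genes tested (one line each, grouped by kind), with the 5 ZTs of Bd21 in the left columns and those of Bd21-3 in the right ones. Red is higher in S, blue is higher in LL, colours end at -5 and 5, and dots mark called values, most of which sit in the HSF, cytosolic HSP70, HSP90 and HSP101 blocks (red) and in the plastid chaperonin block (blue).

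Among the HSFs, 3 of 9 class A factors and 1 of 5 class B factors rose, and 1 of 4 class C factors fell. The factor with the highest log2FC of S over LL was Bradi1g08891, a match of HSFA2, which in Arabidopsis is a heat-induced activator that prolongs the heat shock response. In Bd21 at ZT0 it had 249.9, 401 and 254 CPM in S, against 0, 0 and 0.261 CPM in LL and 0.116, 0.320 and 0.184 CPM in NG. In Bd21-3 at the same time it had 427, 568 and 581 CPM in S, against 0.304, 0.356 and 0.482 CPM in LL and 0.430, 0.397 and 0.105 CPM in NG. At ZT0 it was thus close to absent in both controls, and at no ZT did its S libraries overlap those of LL or NG.

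The log2FC of Bradi1g08891 in S over LL was 8.09 ± 0.50 (SE) in Bd21 and 8.56 ± 0.50 in Bd21-3 at ZT0 (adjusted p = 3.3e-22 and 1.2e-23). Against controls near 0 this size depends on the 1 CPM added before the logarithm and is no bound: with 0.25 CPM it was 9.86 in Bd21, and with 5 CPM it was 5.88. By ZT24 its S libraries held 30.0, 32.9 and 27.9 CPM in Bd21 and 12.7, 6.94 and 10.4 CPM in Bd21-3. The log2FC at ZT24 was 4.5 in Bd21 and, in Bd21-3, 3.31, which was not called because the mean stayed under 15 CPM. In Bd21-3 the call at ZT20 was also lost without S replicate 1 (log2FC 3.47). Bradi1g37720 and Bradi2g41530 are also matches of HSFA2, and their log2FC, between 0.14 and 1.81 and between -1.14 and 1.60, was not called at any ZT. Both were low genes, with means over all libraries of 3.42 and 5.16 CPM and at most 22.3 and 15.6 CPM in any library. A call requires a group mean of 15 CPM, so the lack of calls does not show that they did not respond.

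Bradi3g26920, a match of HSFA6B, an HSF linked to abscisic acid and drought in Arabidopsis, was present in all groups, and its mean in S was highest at ZT0 in both ecotypes. At ZT0 it had 314, 372 and 359 CPM in S, against 17.7, 12.8 and 14.1 CPM in LL, in Bd21. In Bd21-3 it had 611, 720.2 and 641 CPM in S, against 14.3, 12.2 and 15.0 CPM in LL. Single S libraries of Bd21 reached higher values at later times, up to 526 CPM at ZT8. S and LL did not overlap at any ZT, and its log2FC was 4.47 ± 0.26 in Bd21 and 5.47 ± 0.26 in Bd21-3 at ZT0, against 1.71 and 2.27 at ZT20 (adjusted p = 2.2e-23, 5.6e-28, 6.4e-08 and 1.5e-11 in this order). It was called in 9 of 10 comparisons, and the exception was Bd21-3 at ZT16 (1.33). Bradi1g05550, Bradi1g55630 and Bradi1g74350 also match HSFA6B and were not called in S over LL (-0.04 to 0.98, -0.03 to 0.96 and -1.05 to 0.39). Over NG, Bradi1g74350 was called lower at 2 ZTs in Bd21-3 (-2.00 to -0.37 over the ZTs).

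Bradi3g44700, a match of HSFA3, which acts downstream of DREB2A in Arabidopsis, had 107, 127 and 118 CPM in S, against 1.59, 0.593 and 1.45 CPM in LL, in Bd21-3 at ZT0 (log2FC 5.77 ± 0.30). In Bd21 the S libraries held 59.3, 68.0 and 42.8 CPM, against 2.64, 2.79 and 1.57 CPM in LL (log2FC 4.11 ± 0.30). S was above both controls in every library at every ZT. It was called in 9 of 10 comparisons, and the value not called was 1.40 in Bd21-3 at ZT24, where LL had 7.50, 6.85 and 6.18 CPM and NG 0.835, 0.359 and 0.839 CPM.

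Of the class B factors only Bradi3g42130, a match of HSFB2A, was called. In Bd21-3 at ZT0 it had 14.3, 13.6 and 29.9 CPM in S, against 0.228, 0 and 0.0965 CPM in LL, and in Bd21 17.4, 26.0 and 7.09 CPM, against 0.165, 0 and 0 CPM. Its S libraries lay above those of LL at all 10 times and ecotypes, yet at low levels with a wide spread, and 3 comparisons were called: ZT0 and ZT8 in Bd21 (3.92 and 3.65) and ZT0 in Bd21-3 (4.11). Each call rested on 1 library. In Bd21 they were lost without S replicate 2 at ZT0 (3.54) and without S replicate 3 at ZT8 (3.13). In Bd21-3 the call at ZT0 was lost without S replicate 3 (3.76). At ZT0 the mean of the S libraries left was under 15 CPM in both ecotypes, while those libraries still lay above LL. The 3 matches of HSFB4, a factor of root patterning in Arabidopsis, had a negative log2FC in each of the 10 comparisons, from -2.86 to -0.97 for Bradi4g32050, -2.35 to -0.65 for Bradi1g19900 and -1.96 to -0.59 for Bradi1g61620. Their levels, at most 11.7 CPM in any LL library and 4.26 CPM in any S library, were under the 15 CPM that a call requires. The second match of HSFB2A, Bradi5g18680, had a log2FC between -0.28 and 2.22 and was not called.

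Class C held a factor that fell. Bradi1g38140, a match of HSFC1, had 3.09, 0.738 and 0.544 CPM in S, against 27.0, 67.1 and 57.0 CPM in LL and 40.2, 29.6 and 41.7 CPM in NG, in Bd21-3 at ZT20 (log2FC of S over LL -4.43 ± 0.49, adjusted p = 7.1e-12). In Bd21 at ZT20 it had 3.87, 1.36 and 1.58 CPM in S, against 34.4, 22.0 and 24.7 CPM in LL (log2FC -3.15). At ZT0 its S and LL libraries overlapped in both ecotypes (log2FC 0.30 in Bd21 and -0.34 in Bd21-3). At ZT8 in Bd21 it lay on the other side, with 8.62, 10.5 and 22.6 CPM in S, against 1.71, 4.96 and 3.84 CPM in LL (log2FC 1.69, not called), and at ZT8 in Bd21-3 S and LL overlapped (0.32). It fell at ZT16, ZT20 and ZT24 in Bd21-3 and at ZT20 in Bd21. The call in Bd21 was lost without LL replicate 1 or S replicates 2 or 3 (-3.02 to -2.96), and that at ZT16 in Bd21-3 without LL replicates 2 or 3 or S replicates 1 or 3 (-2.69 to -2.27).

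**Figure D2:**
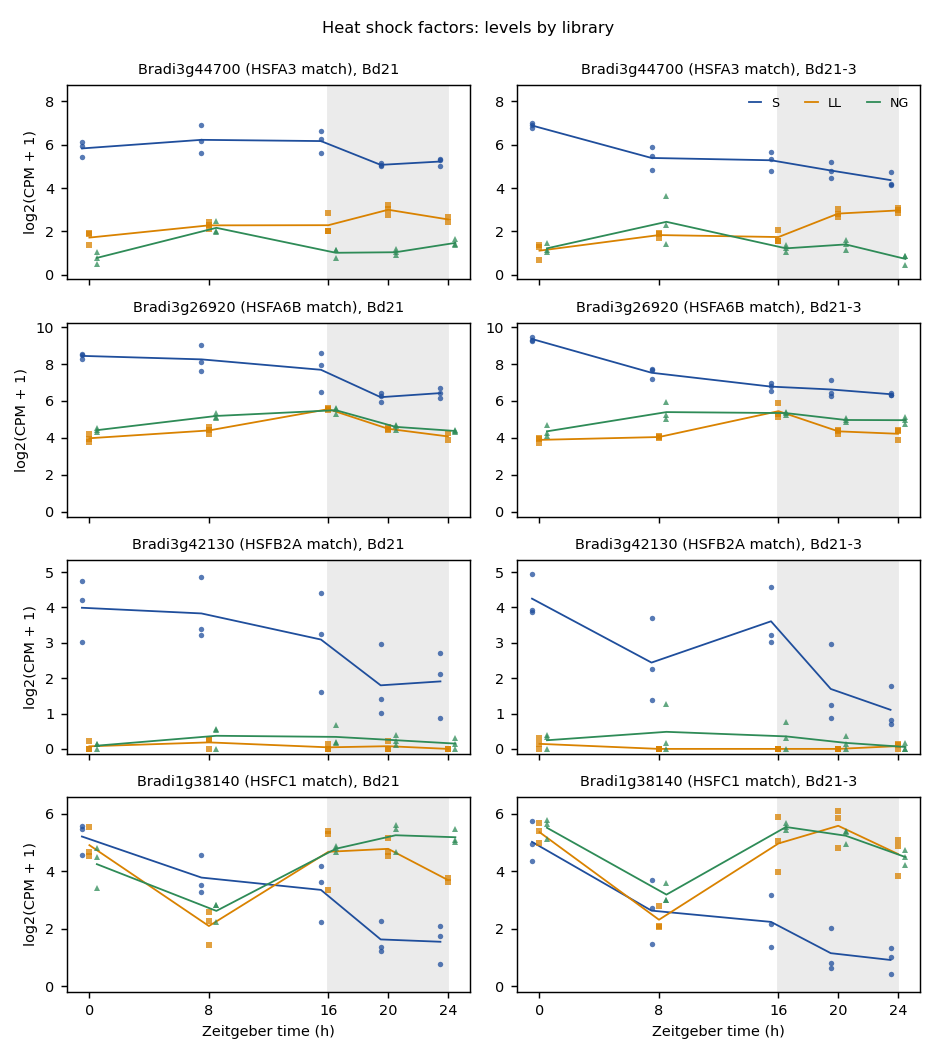
Levels of 4 heat shock factors as log2(CPM + 1) against zeitgeber time in h, Bd21 left and Bd21-3 right; points are libraries, lines join group means, and the dark period is shaded. S lies above LL at every time for the HSFA3, HSFA6B and HSFB2A matches, while for the HSFC1 match S and LL overlap at ZT0 and S is the lowest group at ZT20 and ZT24.

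HSP101 was represented by 2 genes that rose. Bradi2g49660 had 179, 189.6 and 373 CPM in S, against 3.87, 5.52 and 5.41 CPM in LL and 12.3, 14.1 and 15.1 CPM in NG, in Bd21 at ZT8. In Bd21-3 it had 74.1, 111 and 137 CPM in S, against 2.58, 5.07 and 4.02 CPM in LL and 17.2, 16.4 and 39.7 CPM in NG, of which the last is the NG library that stood apart. The order S above NG above LL held without overlap at this time in both ecotypes. Its log2FC of S over LL was 5.31 ± 0.34 in Bd21 and 4.46 ± 0.34 in Bd21-3 (adjusted p = 1.9e-21 and 2.6e-18), and over the 10 comparisons it ran from 2.92 to 5.31.

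Bradi2g19540, the other match of HSP101 that rose, was highest at ZT0, with 287, 495 and 171 CPM in S, against 2.15, 1.35 and 1.04 CPM in LL, in Bd21. In Bd21-3 it had 311, 429 and 545 CPM in S, against 2.43, 2.37 and 2.03 CPM in LL. S and LL did not overlap at any ZT. The log2FC was 6.88 ± 0.57 in Bd21 and 7.0 ± 0.57 in Bd21-3, and at ZT24 it was 3.99 in Bd21 (called) and 2.88 in Bd21-3 (not called). Late calls rested on single libraries: in Bd21 that at ZT20 was lost without S replicate 1 or LL replicate 3 (2.91 to 3.51) and that at ZT24 without S replicate 1 or 2 or either LL library (3.67 to 4.07), and in Bd21-3 that at ZT16 without S replicate 2 or LL replicate 1 (3.35 to 3.43). Calls also depended on the control: over LL they were made at 5 ZTs in Bd21 and 3 in Bd21-3, and over NG at 3 and 1. The log2FC of S over NG ran from 2.25 to 7.0.

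Another match, Bradi1g50660, fell. It was called at ZT8 in Bd21, with 5.46, 7.21 and 5.71 CPM in S, against 29.6, 29.6 and 24.3 CPM in LL (log2FC -2.02 ± 0.28, adjusted p = 8.4e-09). NG had 4.19, 9.34 and 11.4 CPM at this time, so S overlapped NG and LL lay above both. The remaining 4 genes of this kind had log2FC values between -0.68 and 1.07 and were not called.

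Cytosolic HSP70s hold unfolded proteins, and 4 of 8 rose. Bradi1g66590, a match of the heat-inducible HSP70 of Arabidopsis, ranged over 130.1 to 2213 CPM (median 684) in the S libraries of Bd21, against 40.8 to 366 CPM (median 84.8) in LL and 108 to 475 CPM (median 231) in NG. In Bd21-3 it ranged over 111 to 2488 CPM (median 512) in S, against 44.8 to 191 CPM (median 73.3) in LL and 127 to 469.6 CPM (median 225) in NG. Within each ZT, S lay above LL with no overlap, with a log2FC of 3.99 ± 0.34 in Bd21 and 3.82 ± 0.34 in Bd21-3 at ZT0. At ZT24 it was 1.74 and 1.41, and neither was called.

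Against NG the same gene, Bradi1g66590, was called at ZT0 alone. Its log2FC of S over NG was 3.62 in Bd21 and 3.52 in Bd21-3 at ZT0, and 0.06 and -0.16 at ZT24, where the S and NG libraries overlapped. Several S over LL calls of this gene also rested on single libraries. In Bd21 they were lost at ZT16 without S replicate 2 or LL replicate 3 (1.75 to 2.00) and at ZT20 without S replicates 1 or 3 or LL replicates 1 or 2 (1.73 to 1.96). In Bd21-3 they were lost at ZT16 without S replicate 2 or LL replicate 1 (1.90 to 1.93) and at ZT20 without any one of the 6 libraries (1.58 to 1.97).

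Bradi2g23250, another match of the heat-inducible HSP70, had at most 5.82 CPM in any LL library and medians of 6.46 CPM in Bd21 and 5.37 CPM in Bd21-3 in NG. In Bd21 at ZT8 it had 313, 371 and 626 CPM in S, against 0.373, 1.24 and 3.15 CPM in LL and 8.37, 6.46 and 8.06 CPM in NG. In Bd21-3 it had 78.0, 169 and 263 CPM in S, against 1.11, 0.406 and 0.689 CPM in LL and 6.26, 3.21 and 57.9 CPM in NG, of which the last is the library that stood apart. No S library overlapped a control at any ZT, and the log2FC of S over LL at ZT8 was 7.48 ± 0.55 in Bd21 and 6.48 ± 0.55 in Bd21-3 (adjusted p = 1.0e-18 and 2.7e-16).

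Bradi2g54570, the third match of that HSP70, and Bradi1g66470, a match of the cognate HSC70-1, rose as well. Bradi2g54570 had 390.1, 477 and 761 CPM in S, against 1.04, 3.61 and 7.78 CPM in LL, in Bd21 at ZT8, with a log2FC of 6.91 ± 0.43. Bradi1g66470 had 492, 524 and 831 CPM in S, against 1.04, 5.41 and 8.86 CPM in LL, at the same time, with a log2FC of 6.89 ± 0.52. Over the 10 comparisons the log2FC ran from 4.89 to 6.91 for Bradi2g54570 and from 4.28 to 6.89 for Bradi1g66470. Neither gene had an S library that overlapped a control of its own time.

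The cognate Bradi1g03720, also a match of HSC70-1, was not called. It ranged over 896 to 1952 CPM (median 1513) in the S libraries of Bd21, against 1066 to 1676 CPM (median 1480.2) in LL, and over 1115 to 2238 CPM (median 1682) in S of Bd21-3, against 1088 to 1916 CPM (median 1469.5) in LL. Its log2FC of S over LL stayed between -0.47 and 0.52. The other 3 cytosolic HSP70s, Bradi1g66527, Bradi1g66540 and Bradi4g04220, had values between -1.78 and 0.53 and were not called. Of these, Bradi1g66527 and Bradi1g66540 had at most 8.90 and 2.35 CPM in any library, under the 15 CPM that a call requires. Close copies of this family can share reads, so that levels of single genes are uncertain to that extent.

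HSP110-type proteins exchange nucleotides on HSP70, and 1 of 4 rose. Bradi2g33682, a match of HSP91, had 293, 361 and 583 CPM in S, against 66.6, 56.7 and 65.3 CPM in LL, in Bd21 at ZT8 (log2FC 2.64 ± 0.19). In Bd21-3 it had 210.2, 193 and 195 CPM in S, against 69.5, 67.0 and 54.2 CPM in LL (log2FC 1.64 ± 0.19). S and LL had no overlap at ZT8 in either ecotype. The call of 1.64 in Bd21 at ZT16 was lost without S replicate 2 (1.12). Over NG, Bradi2g33682 was called at 1 ZT in Bd21 (0.23 to 1.75 over the ZTs) and at 0 in Bd21-3 (-0.66 to 1.09). Its log2FC of LL over NG was negative at every ZT (-1.21 to -0.21).

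BiP is the HSP70 of the endoplasmic reticulum, and its match Bradi3g01477 changed with the time of day. At ZT0 it had 82.3, 84.7 and 86.8 CPM in S, against 255, 237 and 319 CPM in LL, in Bd21, and 103, 64.6 and 97.2 CPM in S, against 330.4, 374 and 429 CPM in LL, in Bd21-3. It was thus lower in S in every library (log2FC -1.65 ± 0.23 and -2.11 ± 0.23, adjusted p = 1.7e-08 and 8.7e-12). From ZT8 on the log2FC was positive, from 0.24 to 1.32, and not called. At ZT24 the S libraries held 271, 194 and 204 CPM in Bd21, against 97.1 and 79.3 CPM in LL and 475, 471 and 384 CPM in NG, so S then lay between the controls. Over NG, Bradi3g01477 had a negative log2FC in S at all 10 times and ecotypes, from -2.17 to -0.31. The second match of BiP, Bradi2g06050, had at most 3.40 CPM in any library. The 2 plastid HSP70s stayed between -1.28 and 1.06 in S over LL and were not called. Over NG, the plastid HSP70 Bradi2g30560 was called lower in 5 of 10 comparisons (-2.11 to -0.64), and Bradi4g39470 in none (-0.77 to 0.19). In LL over NG, 0 of the 20 values of these 2 genes were positive.

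Among the 5 cytosolic HSP90s, Bradi5g02037, the only match of the heat-inducible HSP90.1, rose at every time. At ZT0 it had 297, 373 and 192 CPM in S, against 2.81, 1.53 and 2.61 CPM in LL, in Bd21, and 418, 577 and 678 CPM in S, against 3.64, 7.48 and 5.21 CPM in LL, in Bd21-3. At ZT24 it had 172, 174 and 103 CPM in S, against 0.426 and 0.562 CPM in LL, in Bd21, and 129, 58.9 and 113 CPM in S, against 0.595, 0.656 and 1.02 CPM in LL, in Bd21-3. No library of S overlapped a control of its time. The log2FC of S over LL was 6.41 ± 0.47 at ZT0 and 6.62 ± 0.52 at ZT24 in Bd21, and 6.45 and 5.78 in Bd21-3. Over NG it ran from 4.08 to 6.21 in Bd21 and from 3.69 to 6.04 in Bd21-3, and all 10 values were called. In LL over NG the gene was negative at every ZT (-2.74 to -0.21), so its values over LL were larger than those over NG.

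Bradi3g39630, 1 of 4 matches of the constitutive HSP90.4, was called at ZT8 in both ecotypes. It had 308, 329.8 and 434 CPM in S, against 57.6, 78.8 and 88.1 CPM in LL and 236, 269 and 251 CPM in NG, in Bd21. In Bd21-3 it had 189, 216 and 209 CPM in S, against 68.4, 70.2 and 57.4 CPM in LL and 227, 243 and 224 CPM in NG. S lay above LL in both, yet in Bd21-3 it lay below NG: the log2FC of S over LL was 2.25 and 1.64, and that of S over NG was 0.49 in Bd21 and -0.18 in Bd21-3. Of the other 3 matches, Bradi3g39590 was among the genes present throughout, with 635 to 997 CPM (median 810.4) in S, against 718 to 1174 CPM (median 989.6) in LL, in Bd21, and the 3 stayed between -0.65 and 1.05, and the mitochondrial HSP90 Bradi4g06370 between 0.25 and 1.28.

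**Figure D3:**
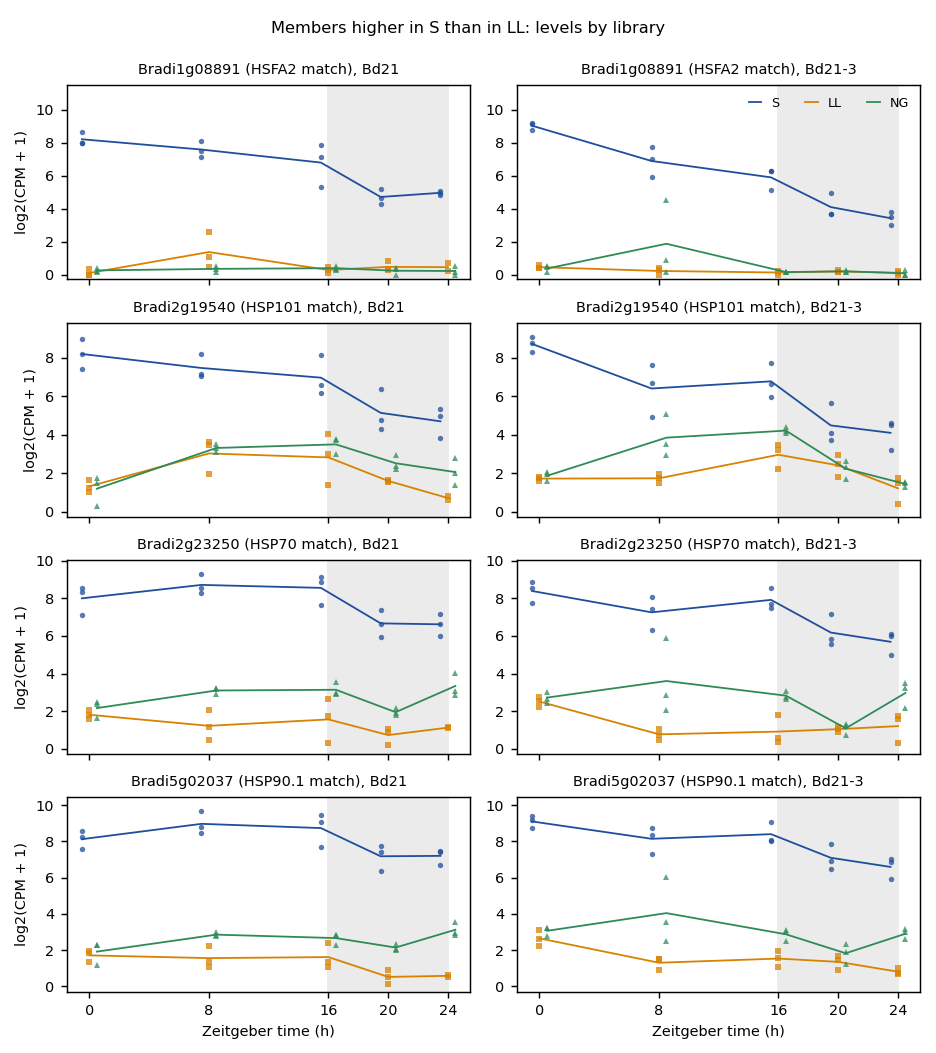
Levels of the HSFA2, HSP101, HSP70 and HSP90.1 matches Bradi1g08891, Bradi2g19540, Bradi2g23250 and Bradi5g02037 as log2(CPM + 1) against zeitgeber time in h, Bd21 left and Bd21-3 right; points are libraries, lines join group means, and the dark period is shaded. The S mean lies above those of LL and NG at each time, S means are lower at ZT20 and ZT24 than at ZT0, and 1 NG library of Bd21-3 at ZT8 lies above the other 2.

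Libraries of 1 S group moved together in these genes. In Bd21 at ZT16, replicate 1 was the lowest in 13 and replicate 2 the highest in 13 of the 14 genes that rose. At ZT8, replicate 1 was the lowest in 12 of 14 in both ecotypes, and replicate 3 was the highest in 13 in Bd21 and 11 in Bd21-3. The spread between pools was thus shared by most of these genes.

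In the plastid, 6 of the 9 chaperonin genes fell. Bradi5g02890, a match of the CPN60A subunit, had 46.7, 59.2 and 76.0 CPM in S, against 799, 843 and 566 CPM in LL and 1662, 1484 and 1696 CPM in NG, in Bd21-3 at ZT16. In Bd21 it had 206, 127 and 121 CPM in S, against 677, 545 and 516 CPM in LL and 1227, 1421 and 1405 CPM in NG. The order NG above LL above S held in every library of both ecotypes at this time, and S lay below LL without overlap at all times. The log2FC of S over LL was -1.96 ± 0.15 in Bd21 and -3.59 ± 0.15 in Bd21-3 (adjusted p = 3.9e-18 and 1.1e-30). It was smallest at ZT0, at -1.60 and -1.63, and the call of Bd21 there was lost without LL replicate 3 (-1.48).

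Bradi3g60027, a match of the plastid co-chaperonin CPN20, which caps the CPN60 barrel, had 7.09, 5.96 and 7.58 CPM in S, against 84.0, 65.0 and 73.0 CPM in LL, in Bd21-3 at ZT8 (log2FC -3.25 ± 0.22). In Bd21 it had 17.2, 11.7 and 8.45 CPM in S, against 32.2, 46.1 and 47.6 CPM in LL (log2FC -1.71 ± 0.22). S and LL were apart at ZT8, and overlapped only in Bd21 at ZT16, the 1 comparison of 10 that was not called (-0.91). In Bd21 the call at ZT8 was lost without S replicate 3 (-1.48) and that at ZT24 without S replicate 3 or LL replicate 1 (-1.61 to -1.42). The CPN20 matches Bradi1g46596 and Bradi4g31220 were called lower at 3 ZTs each in Bd21-3, with log2FC between -1.61 and -1.52, and in Bd21 had values between -1.11 and -0.29. Each call of Bradi1g46596 was close to the limit and was lost without 1 library, at values between -1.49 and -1.47: S replicate 1 at ZT8, S replicate 3 at ZT20, and S replicate 2 or LL replicate 1 at ZT24.

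Bradi5g11240, of the TCP-1/cpn60 family, whose best match in Arabidopsis is a plastid CPN60 beta subunit, was above LL at first and below it later. At ZT0 it had 242, 218 and 279 CPM in S, against 99.0, 101.1 and 93.5 CPM in LL, in Bd21, and 221, 225 and 185 CPM in S, against 132, 114 and 109.7 CPM in LL, in Bd21-3. All S libraries were thus the higher ones, with log2FC values of 1.32 and 0.82, under the limit of a call. At ZT16 it had 48.3, 36.9 and 34.6 CPM in S, against 142, 131 and 167 CPM in LL, in Bd21, and 29.5, 22.4 and 33.8 CPM in S, against 256, 198 and 153 CPM in LL, in Bd21-3. All S libraries were then the lower ones, and the gene was called at ZT16 and ZT20 in both ecotypes (-1.86 and -2.77 at ZT16, adjusted p = 1.1e-14 and 2.8e-22) and at ZT24 in Bd21-3. In Bd21 the call at ZT20 was lost without S replicate 1 (-1.47).

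The CPN60B match Bradi1g50270, the other subunit of the barrel, ranged over 381 to 1465 CPM (median 613) in S, against 950.2 to 1883 CPM (median 1543) in LL, in Bd21-3, and over 428 to 1465 CPM (median 679.6) in S, against 960.1 to 1888 CPM (median 1156) in LL, in Bd21. In S over LL it was called at ZT16 in Bd21-3 (-1.64 ± 0.15) and had values between -1.26 and -0.16 elsewhere. The count depends on the control: over NG it was called lower in 8 of 10 comparisons (-2.67 to -0.43). Its log2FC of LL over NG was negative at every ZT (-1.63 to -0.11). The second CPN60B match Bradi3g00480 and the CPN60A matches Bradi4g38090 and Bradi1g00730 were not called, with log2FC values between -0.34 and 1.42. Bradi1g00730 ranged over 86.8 to 119 CPM (median 105) in S, against 70.5 to 96.7 CPM (median 81.6) in LL, in Bd21. The summed green leaf markers were also lower in S than in LL (medians of 4278 and 19538 CPM), and their part in the fall of the plastid chaperonins was not tested.

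RbcX proteins are assembly chaperones of Rubisco, and 2 of 3 fell. Bradi1g24147 had 4.48, 5.97 and 9.18 CPM in S, against 37.9, 32.4 and 23.3 CPM in LL, in Bd21-3 at ZT16 (log2FC -2.12 ± 0.25), while at ZT0 its S and LL libraries overlapped in both ecotypes. It was called at ZT16, ZT20 and ZT24 in Bd21 and from ZT8 on in Bd21-3. Of these, ZT16 in Bd21 was lost without S replicate 2 or LL replicate 3 (-1.35 to -1.32), ZT24 in Bd21 without LL replicate 2 (-1.70), and ZT8 in Bd21-3 without S replicates 2 or 3 or LL replicates 1 or 3 (-1.57 to -1.33). Bradi1g04620 had 7.06, 10.1 and 7.89 CPM in S, against 43.9, 49.0 and 47.5 CPM in LL, in Bd21-3 at ZT0 (log2FC -2.37 ± 0.30), and was also called at ZT8 and ZT24 there. Its call at ZT24 was lost without any of 5 of the 6 libraries (-1.85 to -1.64), and in Bd21 it was called at no ZT (-1.57 to 1.34).

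**Figure D4:**
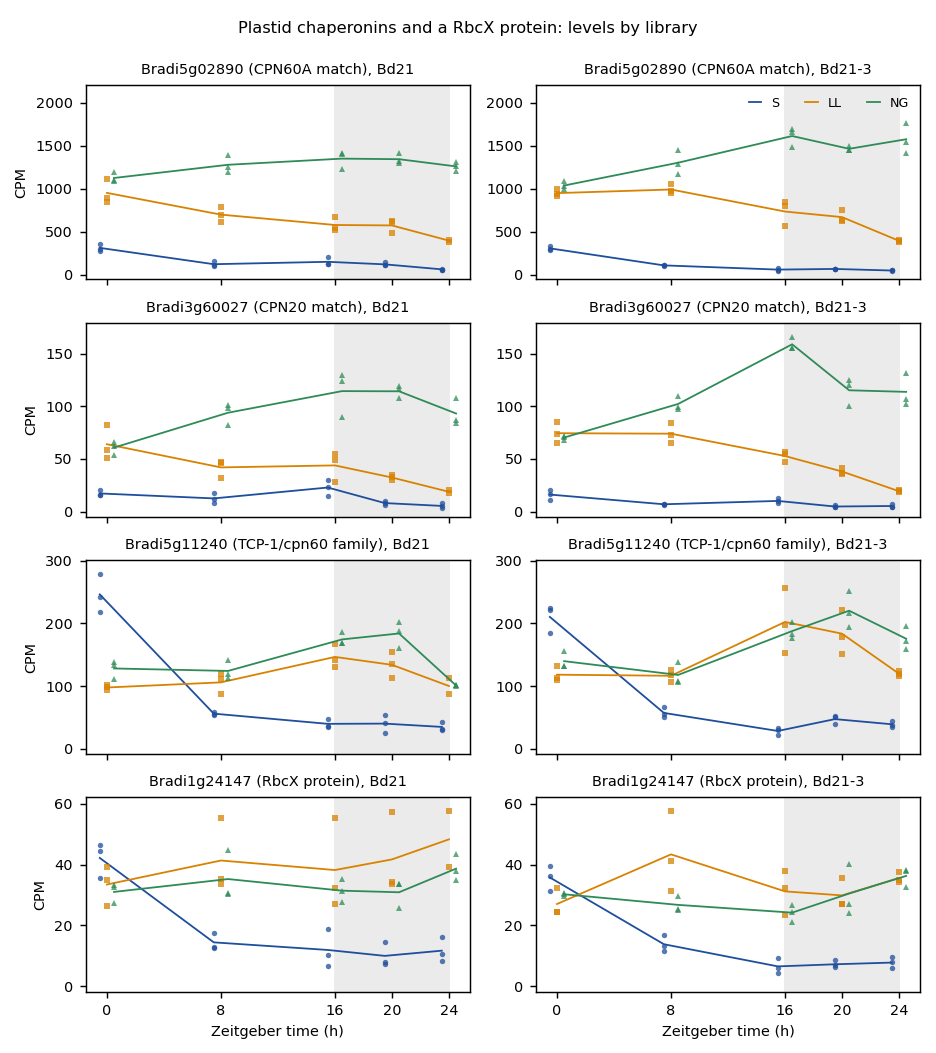
Levels in CPM of 3 plastid chaperonins and the RbcX protein Bradi1g24147 against zeitgeber time in h, Bd21 left and Bd21-3 right; points are libraries, lines join group means, and the dark period is shaded. Bradi5g02890 and Bradi3g60027 run lowest in S at all times, while Bradi5g11240 and Bradi1g24147 start at or above LL at ZT0 and lie below both controls from ZT8 on.

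No chaperonin outside the plastid was called lower in S over LL. All 9 CCT genes had log2FC values of S over LL between -0.27 and 0.86, positive in 82 of 90 values, and none was past the limit of 1.5. These signs depend on the control: in LL over NG the CCT genes were positive in 4 of 90 values, and in S over NG in 49 of 90 (median 0.06). The 4 mitochondrial chaperonin genes had values of S over LL between -0.68 and 1.60, positive in 36 of 40. In S over NG their direction turned, with 6 of 40 values positive and a median of -0.49, and 3 of the 4 were called lower, all in Bd21-3. These were Bradi1g19860 and Bradi1g75520 at ZT20 and ZT24 and Bradi3g28070 at ZT24 (-1.76), and the calls at ZT20 were lost without S replicate 3 (-1.49) and S replicate 1 (-1.46) in this order. Over LL the HSP60 match Bradi1g75520 was called once, in Bd21 at ZT8, with 155, 128 and 115 CPM in S, against 39.0, 39.8 and 50.1 CPM in LL and 136, 133 and 125 CPM in NG. S was above LL and overlapped NG, and the call (1.60 ± 0.17) was lost without S replicate 1 (1.48).

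Of the remaining genes, 8 are HSP90-like ATPases, among them matches of MORC proteins and of NO VEIN, which share the ATP-binding fold of HSP90 and are not known as chaperones. Bradi3g43270 fell at ZT16, with 10.8, 8.65 and 9.02 CPM in S, against 37.4, 36.6 and 59.4 CPM in LL, in Bd21, and 6.90, 9.26 and 10.2 CPM in S, against 41.3, 30.6 and 21.1 CPM in LL, in Bd21-3. The groups did not overlap (log2FC -2.09 ± 0.20 and -1.67 ± 0.20), and the call in Bd21-3 was lost without LL replicate 1 (-1.45). The other 7 stayed between -0.76 and 1.24. Bradi5g23620, a match of the HSP70-interacting protein HIP1, stayed between -0.37 and 0.13.

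A list of 35 other genes held co-chaperones and partners of these proteins. It also held matches of CLPB3, CLPB4, HSA32, the endoplasmic reticulum HSP90, galactinol synthase and MBF1C, so its shares are not those of co-chaperones alone. The list was set with earlier results of these data known. Of the 35 genes, 11 rose and 3 fell in S over LL at 1 or more ZTs in either ecotype and 21 were not called. In Bd21, 11 (31.4%) rose and 2 (5.71%) fell, beside 7.03% and 8.42% of all genes tested, and in Bd21-3, 8 (22.9%) rose and 3 (8.57%) fell, beside 7.5% and 9.95%. Their median log2FC lay between 0.11 and 0.86 in the 10 comparisons. Bradi5g06390, a match of the HSP90-binding isomerase ROF2, averaged 378 ± 193 CPM (SD, n = 3) in S, against 14.2 ± 2.53 CPM in LL, in Bd21 at ZT8 (log2FC 4.54 ± 0.29), and was called in all 10 comparisons. Bradi5g16970, a match of the HSP70-HSP90 organizing protein, averaged 106 ± 31.3 CPM in S, against 2.81 ± 0.547 CPM in LL (log2FC 4.79 ± 0.30), and was also called in all 10. The S and LL means of both genes were further apart than their SDs.

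BAG proteins, which bind HSP70, went both ways. The BAG5 match Bradi1g12090 averaged 99.2 ± 36.0 CPM in S, against 0.535 ± 0.739 CPM in LL, in Bd21 at ZT8 (log2FC 6.08 ± 0.48). Its call at ZT24 in Bd21 was lost without LL replicate 1 (3.83). The BAG3 match Bradi1g49537 averaged 7.90 ± 1.53 CPM in S, against 57.4 ± 6.23 CPM in LL, in Bd21-3 at ZT0 (log2FC -2.72 ± 0.37), and the BAG2 match Bradi3g42060 averaged 6.12 ± 2.50 CPM, against 49.2 ± 15.7 CPM (-2.83 ± 0.36). The third that fell was the plastid GrpE match Bradi3g48540, in Bd21-3 at ZT0 (-1.70 ± 0.20). MBF1C, a heat-induced coactivator in Arabidopsis, was matched by Bradi1g37080, with 41.9 ± 20.7 CPM in S, against 0.558 ± 0.205 CPM in LL, in Bd21 at ZT8 (log2FC 4.69 ± 0.60), and its calls in Bd21-3 were lost at ZT0 without any of the 6 libraries (2.91 to 3.56) and at ZT16 without S replicate 2 (3.49).

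Some of the same genes were lower in LL than in NG. The LL plants had also been moved into tanks, so light and this move cannot be told apart. In LL over NG, 8 of the 81 genes (9.88%) were called lower in Bd21 at 1 or more ZTs, beside 1.31% of all genes tested, and 14 (17.3%) in Bd21-3, beside 1.58%. Called higher was 1 gene in Bd21, beside 1.12% of all genes, and 0 in Bd21-3, beside 1.12%, where limma gave 0 to 10 higher per ZT at an unadjusted p under 0.05 and edgeR called 0. The median log2FC of the 81 genes ran from -0.49 to -0.08, where that of all genes lay between -0.11 and 0. In fits of only the groups compared, 0 genes were called in either ecotype.

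All 4 mitochondrial chaperonin genes fell in LL. The CPN10 match Bradi1g19860, the lid of the mitochondrial barrel, had 9.76, 7.41 and 7.51 CPM in LL, against 59.1, 37.6 and 44.6 CPM in NG, in Bd21-3 at ZT24 (log2FC -2.37 ± 0.22, adjusted p = 1.3e-13). The HSP60 match Bradi1g75520 had 23.6, 26.2 and 22.1 CPM in LL, against 147, 109 and 141 CPM in NG (log2FC -2.41 ± 0.17). Neither gene's groups overlapped. Both were also called at ZT20 in Bd21-3 and at ZT8 and ZT24 in Bd21. The HSP60 matches Bradi3g28070 and Bradi2g18260 were called at ZT24 in Bd21-3 (-2.15 and -1.52).

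Since Bradi1g75520 was low in LL, its S levels read differently against NG. In Bd21-3 at ZT24 S had 30.9, 25.8 and 33.4 CPM, which lay near LL and below NG, and the log2FC of S over NG was -2.10 ± 0.17, against 0.31 for S over LL. In Bd21 at ZT24 S had 97.3, 51.5 and 61.2 CPM, against 26.7 and 27.5 CPM in LL and 99.6, 105 and 87.4 CPM in NG.

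The plastid chaperonins Bradi5g02890, Bradi3g60027, Bradi4g31220 and Bradi1g50270 were also lower in LL than in NG, all 4 of them at ZT24 in Bd21-3 and the first 2 also at ZT24 in Bd21. Bradi3g60027 had 18.6, 20.2 and 19.2 CPM in LL, against 132, 107 and 102 CPM in NG, in Bd21-3 at ZT24 (log2FC -2.49 ± 0.22). Its call at ZT16 in Bd21-3 was lost without LL replicate 1 (-1.4999). The BiP match Bradi3g01477 had 93.0, 97.8 and 107 CPM in LL, against 532, 463 and 539 CPM in NG (log2FC -2.35 ± 0.23). Its calls at ZT8 in Bd21 (lost without LL replicate 1, -1.44) and at ZT20 in Bd21-3 (lost without LL or NG replicates 1 or 3, -1.56 to -1.44) did not hold without each library, while those at ZT24 did. Both genes had no overlap between LL and NG at ZT24.

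Some genes that rose in S were among those lower in LL. The HSP70 match Bradi2g54570 had 1.43, 1.69 and 0.782 CPM in LL, against 21.7, 14.5 and 22.6 CPM in NG, in Bd21-3 at ZT24 (log2FC -3.16 ± 0.43), and 3.20 and 1.77 CPM in LL, against 32.0, 27.7 and 19.6 CPM in NG, in Bd21 (-2.98). The groups did not overlap, and the call in Bd21 was lost without NG replicates 1 or 2 or either LL library (-3.28 to -2.68). The HSP90.4 match Bradi3g39630 was called at ZT8 and ZT24 in both ecotypes (-1.76, -1.52, -1.81 and -1.77), of which ZT24 in Bd21 was lost without NG replicate 1 or LL replicate 2 (-1.46 to -1.37). The HSP70 match Bradi1g66590 was called at ZT8 in both (-2.10 and -2.36), which was lost in Bd21 without any NG library or LL replicate 1 (-2.12 to -1.77) and in Bd21-3 without NG replicate 1 or LL replicate 3 (-2.28 to -2.26).

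The NG library that stood apart decided part of this at ZT8 in Bd21-3. Without NG replicate 3, calls of 2 genes were lost: the HSP101 match Bradi2g49660 (log2FC -2.29 with it and -1.90 without it) and the HSP90.1 match Bradi5g02037 (-2.74 with it and -1.73 without it). The call of Bradi2g49660 was also lost without LL replicate 1, and that of Bradi5g02037 without NG replicate 1 or any LL library. In S over NG at this time 0 calls were lost or gained without it.

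The single gene called higher in LL was the HSP101 match Bradi1g50660, in Bd21 at ZT8, with 29.6, 29.6 and 24.3 CPM in LL, against 4.19, 9.34 and 11.4 CPM in NG (log2FC 1.72 ± 0.28). The groups did not overlap, and the call was lost without any LL library or NG replicate 1 (1.35 to 1.81). Of the 35 genes of the co-chaperone list, 1 (2.86%) was called higher and 1 (2.86%) lower in LL over NG in Bd21, beside 1.12% and 1.31% of all genes, and 1 (2.86%) higher and 2 (5.71%) lower in Bd21-3, beside 1.12% and 1.58%. The gene that rose was the Fes1A match Bradi1g66800 (1.99 in Bd21 at ZT8 and 1.66 in Bd21-3 at ZT20). Those that fell were the endoplasmic reticulum HSP90 match Bradi1g30130, the galactinol synthase match Bradi1g64120 and the GrpE match Bradi3g48540 (-1.85, -2.80 and -1.75 at ZT24 in Bd21-3, Bd21 and Bd21-3 in this order).

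**Figure D5:**
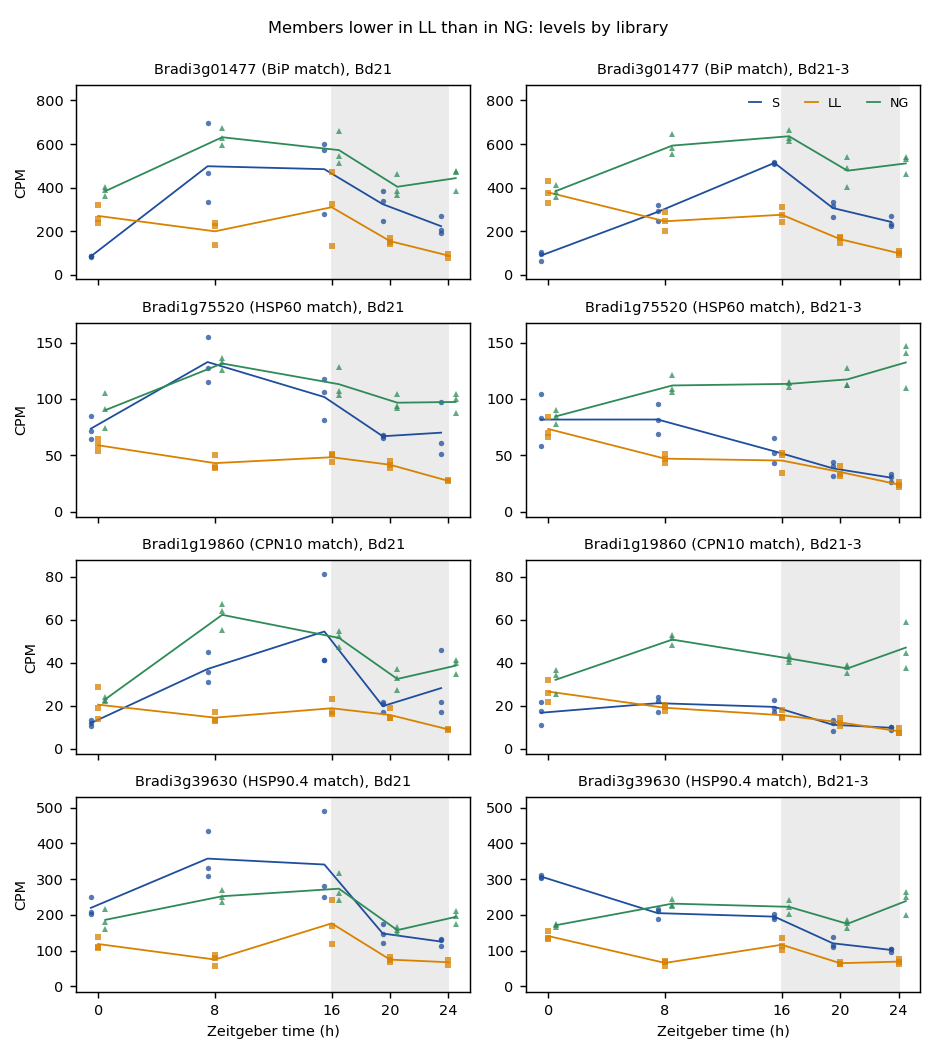
Levels in CPM of the BiP, HSP60, CPN10 and HSP90.4 matches Bradi3g01477, Bradi1g75520, Bradi1g19860 and Bradi3g39630 against zeitgeber time in h, Bd21 left and Bd21-3 right; points are libraries, lines join group means, and the dark period is shaded. LL lies below NG at ZT8 and ZT24 for all 4 genes, and S at ZT24 lies near LL in Bd21-3 for the HSP60 match.

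The ecotypes were compared directly within S. In Bd21 over Bd21-3, 3 of the 81 genes were called higher at 1 or more ZTs, beside 1.33% of all genes, and 0 were called lower, beside 0.668%, where limma gave 5 to 12 lower per ZT at an unadjusted p under 0.05 and edgeR called 0. Of the 3, 2 were matches of HSP101 that were low or absent in Bd21-3 in all treatments. Bradi1g01357 had 14.6, 17.3 and 14.7 CPM in Bd21, against 0.280, 0.206 and 0.200 CPM in Bd21-3, in S at ZT16 (log2FC 3.75 ± 0.26, adjusted p = 2.9e-19), and this size depends on the 1 CPM added. The call was lost without S replicate 2 of Bd21 (3.67), where the mean came under 15 CPM. Across all libraries it ranged in Bd21 over 6.06 to 17.3 CPM (median 10.5) in S, 3.79 to 10.4 CPM (median 7.27) in LL and 3.23 to 11.2 CPM (median 6.01) in NG, and in Bd21-3 over 0 to 0.364 CPM (median 0.106), 0 to 0.380 CPM (median 0) and 0 to 3.35 CPM (median 0.105) in the same order. The highest value in Bd21-3 belonged to the NG library at ZT8 that stood apart. Reads of both ecotypes were aligned to the Bd21 genome, and the part of sequence differences in these levels was not tested.

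Bradi1g50660, the match of HSP101 that fell in S at ZT8, had 15.7, 17.5 and 16.4 CPM in Bd21, against 3.98, 1.43 and 2.61 CPM in Bd21-3, in S at ZT24 (log2FC 2.31 ± 0.28, adjusted p = 7.5e-10). In LL it ranged over 18.8 to 39.7 CPM (median 27.6) in Bd21, against 1.66 to 5.30 CPM (median 2.87) in Bd21-3, without overlap, and the log2FC of Bd21 over Bd21-3 there ran from 2.49 to 3.10 and was called at all 5 ZTs. The RbcX gene Bradi1g04620 had 55.7, 65.4 and 86.7 CPM in Bd21, against 14.3, 17.7 and 24.4 CPM in Bd21-3, in S at ZT8 (log2FC 1.84 ± 0.30). S of the ecotypes did not overlap, and the call was lost without any library but replicate 3 of Bd21-3 (1.66 to 1.98). The count of genes called higher in S rose to 5 without replicate 1 of S at ZT16 in Bd21, and in fits of only the groups compared 0 genes were called.

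Whether the response to submergence itself differed was tested as a difference of log2FC, with the S over LL value of Bd21-3 taken from the one of Bd21. A higher value in Bd21 was called for 1 gene, beside 0.444% of all genes, and 0 with a lower one, beside 0.195%, where limma gave 1 to 10 lower per ZT at an unadjusted p under 0.05 and edgeR called 0. This gene was Bradi5g02890, the CPN60A match, at ZT16, with a difference of 1.62 ± 0.21 (95% interval 1.20 to 2.04, adjusted p = 3.7e-08), so its fall was smaller in Bd21. At the other times the difference was 0.03 at ZT0 (95% interval -0.40 to 0.45), 0.65 at ZT8, 1.04 at ZT20 and 0.34 at ZT24, and not called. The call at ZT16 was lost without replicate 1 of S at ZT16 in Bd21 or in Bd21-3 (1.38 to 1.45), and in fits of only the groups compared 0 genes were called.

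For the genes with the largest rise the intervals of this difference were wide. For the HSFA2 match Bradi1g08891 the difference was -0.47 at ZT0 (95% interval -1.87 to 0.93) and 1.19 at ZT24 (-0.30 to 2.68). For the HSP70 match Bradi2g23250 it was 1.01 at ZT8 (-0.54 to 2.55), and for the HSP90.1 match Bradi5g02037 it was -0.04 at ZT0 (-1.37 to 1.29). None of these was called, which does not show that the ecotypes responded alike.

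The response to submergence changed over the day in part of the genes. By an F test over the ZTs, the log2FC of S over LL changed in 10 of the 81 genes (12.3%) in Bd21, beside 9.22% of all genes, and in 10 (12.3%) in Bd21-3, beside 9%, shares near those of all genes. Among the genes called in Bd21 the widest ranges of log2FC over the 5 ZTs were 4.84 for the HSFC1 match Bradi1g38140, 3.17 for the chaperonin Bradi5g11240 and 2.97 for the BiP match Bradi3g01477. The ranges of 3.86 for Bradi1g08891 and 3.34 for Bradi2g19540 in Bd21 were not called. In Bd21-3 the widest were 5.25 for the HSFA2 match Bradi1g08891, 4.92 for the HSP101 match Bradi2g19540 and 4.75 for Bradi1g38140. The call of Bradi2g19540 was lost without any of 21 libraries (4.55 to 5.13). In a fit of only the groups compared, 1 gene was called in Bd21.

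Levels within S also changed with time. In S, 16 genes changed between ZTs in Bd21, beside 11.2% of all genes, and 19 in Bd21-3, beside 10.1%. In LL they were 3 in Bd21, beside 2.41%, and 7 in Bd21-3, beside 2.52%, and in NG 1 in each ecotype, beside 1.72% and 1.85%. The gene in NG was in both cases Bradi3g36200, the third RbcX protein, with its highest mean at ZT8 and its lowest at ZT0. In S, 9 of the 16 genes in Bd21 and 17 of the 19 in Bd21-3 had their highest mean at ZT0. Counts in LL rested on few libraries: in Bd21 there were 0 without replicate 3 at ZT0 or either library at ZT24 and 6 without replicate 3 at ZT16, and in Bd21-3 there were 4 without replicate 2 at ZT0. In NG there were 2 in Bd21 without replicate 3 at ZT0 or replicates 1 or 2 at ZT20, and 0 in Bd21-3 without replicate 1 at ZT0. In fits of only the groups compared, 1 gene changed in S and 0 in LL of Bd21, and 7 in S, 1 in LL and 2 in NG of Bd21-3.

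The second dawn, ZT24, was compared with the first dawn, ZT0. In S, 9 of the 81 genes were called lower at ZT24 than at ZT0 in Bd21, beside 5.18% of all genes, and 15 in Bd21-3, beside 4.62%. None was called higher in S by limma, beside 2.08% of all genes in Bd21 and 2.4% in Bd21-3, with 18 and 13 at an unadjusted p under 0.05 and 0 by edgeR in both. In LL, 1 gene was called lower in Bd21, beside 0.253%, and 5 in Bd21-3, beside 0.514%, and 0 higher, beside 0.158% and 0.377%, with 12 in each ecotype at an unadjusted p under 0.05 and 0 by edgeR. In NG 0 genes were called in either direction in both ecotypes, beside 0% of all genes, with 11 higher and 6 lower in Bd21 and 21 higher and 4 lower in Bd21-3 at an unadjusted p under 0.05, and 0 by edgeR. The medians of the 81 genes in S were -0.19 in Bd21 and -0.30 in Bd21-3, where those of all genes were 0.00.

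Genes that had risen in S and genes that had fallen were both among those lower on the second morning. The HSFA2 match Bradi1g08891 averaged 10.03 ± 2.90 CPM at ZT24, against 525 ± 85.6 CPM at ZT0, in S of Bd21-3 (SD, n = 3, log2FC -5.60 ± 0.50), and 30.3 ± 2.53 CPM at ZT24, against 301 ± 86.1 CPM at ZT0, in S of Bd21 (log2FC -3.24 ± 0.50). The HSP70 match Bradi1g66590 averaged 184 ± 63.3 CPM at ZT24, against 2064 ± 374 CPM at ZT0, in S of Bd21-3 (log2FC -3.53 ± 0.34). Both genes were thus below their level at ZT0. At ZT24 their S libraries still lay above LL, but in Bd21-3 neither S over LL value was called (3.31 and 1.41 in this order). S of Bradi1g66590 then overlapped NG in Bd21-3 (log2FC of S over NG -0.16). The call of Bradi1g08891 for ZT24 over ZT0 in S of Bd21 was lost without S replicate 2 at ZT0 (-3.02).

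The plastid chaperonin Bradi5g11240, which had been above LL at ZT0, averaged 35.0 ± 7.47 CPM at ZT24, against 246 ± 30.7 CPM at ZT0, in S of Bd21 (log2FC -2.79 ± 0.17). The CPN60A match Bradi5g02890 averaged 49.8 ± 4.19 CPM at ZT24, against 308 ± 25.2 CPM at ZT0, in S of Bd21-3 (log2FC -2.60 ± 0.15). In LL the CPN20 match Bradi3g60027 was the gene called in both ecotypes, with 19.3 ± 0.804 CPM at ZT24, against 74.4 ± 10.1 CPM at ZT0, in Bd21-3 (log2FC -1.89 ± 0.22). The other 4 called in LL of Bd21-3 were the mitochondrial Bradi1g75520, Bradi3g28070 and Bradi1g19860 and the BiP match Bradi3g01477, with log2FC between -1.91 and -1.505. In Bd21 the call in LL was lost without LL replicate 3 at ZT0 or either library at ZT24. In Bd21-3 without LL replicate 2 at ZT0 there were 2 calls in LL, and in S of Bd21 there were 6 without S replicate 2 at ZT0. In S of Bd21-3, 1 gene was called higher without replicates 1 or 3 at ZT0 or replicates 2 or 3 at ZT24. In fits of only the groups compared, 0 genes were called lower in S or LL of either ecotype.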

How the data were processed

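Total RNA of 89 pools of green tissue was measured by RNA-seq. The authors aligned reads with HISAT2 2.1.0 to the Bd21 assembly (v3.0), used SAMtools 1.12, counted reads per gene with HTSeq and scaled them with edgeR, and the deposited signal is these counts over an effective library size, called CPM here. Libraries summed to 843958 to 1243716, whereas a fixed sum had been assumed, and all values came out as whole reads within 0.001 (100% of values), which gives 3896851 to 16044727 reads per library (median 9037308). The table also holds the authors' own log2 fold changes and adjusted p-values, which were not used.

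Tests ran on log2(CPM + 1) with limma-trend (limma 3.58.1, R 4.3.3), 1 term for each of 30 groups, over the 24109 genes that reached 1 CPM in 3 or more libraries, and adjusted p-values are Benjamini-Hochberg within a comparison. This scale understates changes of low genes. Changes between ZTs were F tests, called at a range of at least 1.5. Values came from 3 libraries a group, 2 in LL of Bd21 at ZT24, with the SD between libraries. Members and gene lists were chosen with earlier results of these data known. Genes were named by a rule: in each class the most changed called genes in S over LL and the gene of highest mean, the most changed called genes of the other comparisons, and the most changed co-chaperones, and the other genes with values were chosen after their values were seen. Alternatives were other pseudocounts, filters and scaling, edgeR 4.0.16 on recovered reads, separate fits for each set of groups compared, NG as the control, a looser p, a replicate block and leaving out each library. The smallest chi-square per gene between 2 libraries of a group was 2.69, so none was a copy of another in its group. Libraries of different groups were not compared in this way. Python 3.11.15 with pandas 2.3.3 and matplotlib 3.10.9 made the summaries and plots.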

Additional observations from a re-analysis of the deposited data

Results flagged for a closer look

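The test of the difference between ecotypes singled out the CPN60A match Bradi5g02890 at ZT16, where the response to S (over LL) was less negative in Bd21 than in Bd21-3, with a difference of log2FC of 1.62 (limma, adjusted p = 3.7e-08). This call was lost without replicate 1 of S at ZT16 in Bd21 or in Bd21-3. It was also not made in fits of only the groups compared. The F test over ZTs singled out 10 of 81 genes (12.3%) in Bd21 and 10 (12.3%) in Bd21-3 whose log2FC of S over LL differed between times of day, beside 9.22% and 9% of all genes, so that these counts lie near the share of all genes.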

How the results depend on the processing

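Of 465 values of named genes, 316 were called, and 12 calls were lost with a pseudocount of 0.25 CPM, 24 with 5 CPM, 1 with no filter, 0 with a filter at 15 CPM in 3 libraries, 2 with median of ratios scaling, 14 in edgeR and 287 when each fit used only the groups compared, with 0 reversed in these settings. With NG as the control 27 calls were lost and 19 gained, and 3 values called with either control turned negative, -0.18 for Bradi3g39630 in Bd21-3 at ZT8 and -1.60 and -2.10 for Bradi1g75520 in Bd21-3 at ZT20 and ZT24. A further 37 values called with neither control changed sign, 27 of them to negative, among them those of Bradi3g01477 from ZT8 on. Without 1 library 67 values lost a call, 7 gained one and 0 reversed.

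In fits of only the groups compared, S over LL gave 6 higher and 0 lower in Bd21 and 5 higher and 0 lower in Bd21-3, LL over NG gave 0 in either direction, Bd21 over Bd21-3 in S gave 0 higher, the ecotype difference gave 0, and the response changed between ZTs in 1 gene in Bd21. Levels then changed in 1 gene in S and 0 in LL of Bd21 and in 7 in S, 1 in LL and 2 in NG of Bd21-3, and ZT24 over ZT0 gave 0 lower in S and LL of both ecotypes. These fits have fewer samples. With a pseudocount of 0.25 CPM, LL over NG gave 0 higher in Bd21, and 1 gene in LL and 2 in NG of Bd21 changed between ZTs. With 5 CPM, LL over NG gave 0 higher in Bd21, the ecotype difference 2 higher, ZT changes 4 in LL and 0 in NG of Bd21-3, and ZT24 over ZT0 2 lower in LL of Bd21-3. At an adjusted p under 0.05 the ecotype difference gave 3 higher and 2 lower, the response changed in 19 genes in Bd21 and 18 in Bd21-3, levels changed in 6 in LL and 4 in NG of Bd21 and 10 in NG of Bd21-3, and ZT24 over ZT0 gave 2 lower in LL of Bd21. edgeR gave 2 ZT changes in NG of each ecotype. ZT24 over ZT0 in LL of Bd21 gave 2 lower with the filter at 15 CPM and with median of ratios scaling. For other changes than those of design named above, the cause was not tested.

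The replicate numbers were taken as a block in 1 fit, although they do not pair the samples: 5 of 29 correlations between same-numbered libraries were over 0.1, from -0.66 to 0.44. With the replicate block 5 calls of named values were lost, ZT24 over ZT0 in LL of Bd21 gave 2 lower, and no other count moved by over 1.5 times.

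Without 1 library at a time, S over LL gave 13 to 16 higher and 7 to 8 lower in Bd21 and 12 to 14 higher and 10 to 11 lower in Bd21-3, LL over NG gave 0 to 1 higher and 7 to 9 lower in Bd21 and 0 higher and 12 to 15 lower in Bd21-3, Bd21 over Bd21-3 in S gave 2 to 5 higher and 0 lower, and the ecotype difference gave 0 to 1 higher and 0 lower. The response changed in 9 to 12 genes in Bd21 and 9 to 10 in Bd21-3. Levels changed in 15 to 18 in S, 0 to 6 in LL and 1 to 2 in NG of Bd21, and in 17 to 21 in S, 4 to 7 in LL and 0 to 1 in NG of Bd21-3. ZT24 over ZT0 gave 6 to 9 lower in S and 0 to 1 in LL of Bd21, and 13 to 17 lower and 0 to 1 higher in S and 2 to 5 lower in LL of Bd21-3.

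With 3 libraries a group and 1 read worth up to 0.261 CPM, differences of genes near 0 rest on few reads. Calls require 15 CPM, so that low genes could not be called whatever their fold change.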
